A study of Mus musculus with 2 samples.

Results

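The genes described here are 10 genes that are often high together in cells of mesenchymal character. They comprise the galectins Lgals1 and Lgals3, the annexins Anxa1 and Anxa2, the S100 genes S100a6, S100a10 and S100a11, and the cell surface and matrix genes Tm4sf1, Cd44 and Spp1. They were picked by symbol from a table of 15953 genes, with earlier values of the same contrast known, so their differences are a description and carry no test. RNA came from mouse neural stem cells, the progenitors of neurons, astrocytes and oligodendrocytes, all grown in suspension culture. There was 1 library labelled Hikeshi cKO, a conditional knockout of the carrier that takes HSP70 chaperones into the nucleus, and 1 labelled wild type. The labels used here give neither the Cre line nor the age or number of the animals.

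Galectins are lectins that bind galactose-bearing sugar chains on cell surfaces and matrix. Annexins bind membranes when calcium rises, and S100 proteins are small calcium sensors, some of which clasp an annexin as a partner. Together with CD44, the receptor for the matrix sugar hyaluronan, and osteopontin, the secreted product of Spp1, they are known from motile cells, reactive glia and gliomas of mesenchymal character. Galectin and CD44 are also known from neural progenitors and astrocyte precursors.

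Depth was nearly equal, with 18912683 reads in cKO-labelled cells and 18839079 in wild-type-labelled cells. Hikeshi itself had 640 reads in cKO-labelled cells and 718 in wild-type-labelled cells (ratio 0.888, interval 0.797 to 0.989), a small difference that leaves the genotype resting on the labels. Of the genes of the Y chromosome, Eif2s3y had 1265 reads against 0 and Ddx3y 846 against 0, so sex-linked expression differed along with the label and the 2 cannot be told apart. Markers of the labelled cell type were present, as all 10 neural stem cell markers checked reached 1 CPM, with Sox2 at 404 CPM against 407 CPM. Past 1.5-fold, 1 of them was higher and 3 were lower (Hes5 at 317 reads against 810, Prom1 at 109 against 209 and Fabp7 at 24346 against 36673). Among all genes at 1 CPM or more in at least 1 library, 4.22% were higher and 10.2% lower by as much. With 1 library per group no test was possible. Each ratio is of CPM (reads per 1000000 reads counted), cKO over wild type, with an exact 95% interval that covers counting error only. In such bulk RNA, fewer cells of a type and less RNA per cell cannot be told apart.

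Of the 10 genes, 9 reached 1 CPM in at least 1 library. Of these 9, 5 were higher by 1.5-fold or more in cKO-labelled cells (Lgals1, S100a10, Tm4sf1, Cd44 and Spp1), 1 was lower by as much (S100a6) and 3 lay within 1.5-fold (Anxa2, S100a11 and Lgals3). Among all 12618 genes kept at 1 CPM, 4.22% were higher and 10.2% lower by 1.5-fold or more. The median difference was 0.69 for the 9 genes and -0.02 for all kept genes, as log2 of the CPM ratio after adding 1 CPM. All counts of genes past 1.5-fold use that scale, on which low genes are closer together than by their plain ratios. Because these genes were chosen on this contrast, nothing is read from those shares. The reads of all 10 genes together came to 1373 CPM in cKO-labelled cells and 621 CPM in wild-type-labelled cells, and Lgals1, S100a10 and Cd44 supplied 83.0% and 76.9% of them.

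**Figure D1:**
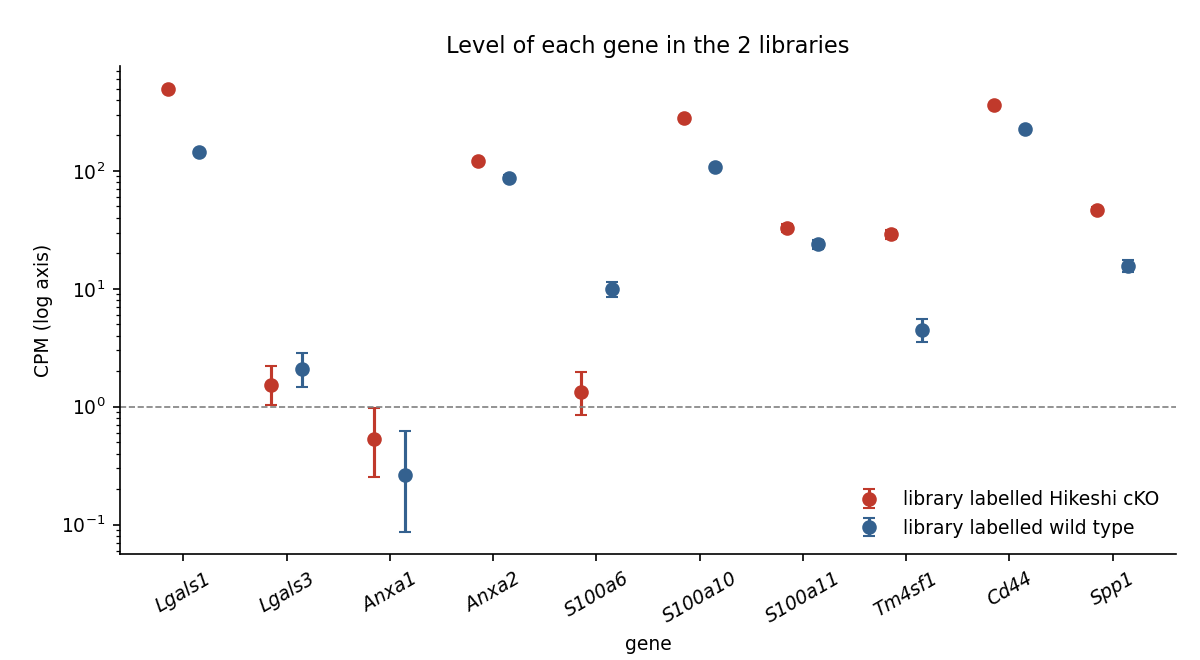
Level of each of the 10 genes in CPM on a log axis, in the library labelled Hikeshi cKO (red, left) and wild-type-labelled cells (blue, right). Points are single libraries, bars are exact 95% Poisson counting intervals and the dashed line marks 1 CPM. Tm4sf1 stood at 29.0 against 4.46 CPM, S100a6 at 1.32 against 9.87 CPM, and the bars of Lgals3 and of Anxa1 overlapped between libraries.

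Lgals1 (Entrez 16852, chromosome 15, 78926725 to 78930465, GRCm38.p6) encodes galectin-1, a secreted lectin that in mice is known to act on neural stem cells of the subventricular zone. It had 9325 reads, or 493 CPM, in cKO-labelled cells and 2725 reads, or 145 CPM, in wild-type-labelled cells. The ratio was 3.41 (3.27 to 3.56). Per transcript length its level was 1625 TPM, at rank 97 of the genes listed, against 482 TPM, at rank 319. It was the most abundant of the 10 genes per length in cKO-labelled cells, whereas S100a10 was the most abundant in wild-type-labelled cells.

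Lgals3 (Entrez 16854, chromosome 14, 47373860 to 47386167) encodes galectin-3, a lectin best known from macrophages and microglia. It had 29 reads in cKO-labelled cells and 39 in wild-type-labelled cells, a ratio of 0.741 whose interval (0.442 to 1.23) includes 1. Per length Lgals3 stood at 2.30 TPM against 3.13 TPM, far below Lgals1, and of this pair only Lgals1 was apart between the libraries beyond counting error. Of the rest of the galectin family, Lgals8 and Lgalsl were kept and both lay within 1.5-fold, at 571 reads against 722 and 1822 against 2180. Lgals2, Lgals4, Lgals9 and Lgals12 had under 10 reads in each library.

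Anxa2 (Entrez 12306, chromosome 9, 69453683 to 69491792) encodes annexin A2, which links membranes to actin and, with its partner S100A10, helps to bind plasminogen and its activator at the cell surface. It had 2288 reads, or 121 CPM, in cKO-labelled cells and 1642 reads, or 87.2 CPM, in wild-type-labelled cells. The ratio of 1.39 (1.30 to 1.48) was above 1 by more than counting error but under 1.5-fold. Anxa1 (Entrez 16952, chromosome 19, 20373434 to 20390671), whose product is a ligand of formyl peptide receptors and dampens inflammation, had 10 reads against 5. At that depth a difference was not detectable (ratio 1.99, 0.620 to 7.43), and Anxa1 was the 1 gene of the set that did not reach 1 CPM.

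The other kept annexin genes had ratios from 0.681 to 1.58, a range that includes the 1.39 of Anxa2. Of 6 kept annexins outside the set, 1 (16.7%) was higher in cKO-labelled cells past 1.5-fold and 0 were lower, with a median difference of 0.27. Over all kept genes the shares were 4.22% and 10.2%. The 1 higher annexin was Anxa3, at 1388 reads against 873 (ratio 1.58, 1.45 to 1.73). Anxa6 and Anxa5, membrane binders of wide expression, had ratios of 1.47 (1.38 to 1.56) and 1.32 (1.21 to 1.43). Anxa7 went the other way (0.681, 0.572 to 0.810), while the intervals of Anxa4 (0.480 to 1.15) and Anxa11 (0.814 to 1.61) included 1. Summed over all 10 annexins listed, the level was 416 CPM in cKO-labelled cells and 301 CPM in wild-type-labelled cells.

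The start of Anxa2 is shown because it holds the letters TGANTCA, those of an AP-1 site, which were searched on both strands along with GGAATG (TEAD) and GAANNTTC (core of a heat shock element). In capitals is the match, which begins 95 bases before the transcript start. The window (RefSeq, GRCm38.p6, chr9:69453433-69453732, plus strand) runs from 250 bases before the start to 50 after it.
Anxa2: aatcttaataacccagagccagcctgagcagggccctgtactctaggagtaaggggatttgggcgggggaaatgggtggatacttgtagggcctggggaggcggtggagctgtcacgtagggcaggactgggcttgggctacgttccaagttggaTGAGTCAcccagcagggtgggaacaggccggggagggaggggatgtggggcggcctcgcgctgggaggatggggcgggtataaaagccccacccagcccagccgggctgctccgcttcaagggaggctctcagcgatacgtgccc

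S100a10 (Entrez 20194, chromosome 3, 93555117 to 93564645) encodes p11, the S100 protein that has lost calcium binding and clasps annexin A2. It had 5364 reads, or 284 CPM, in cKO-labelled cells and 2031 reads, or 108 CPM, in wild-type-labelled cells, a ratio of 2.63 (2.50 to 2.77). The partner gene Anxa2 differed by less, so the per-length level of S100a10 was 7.22 times that of Anxa2 in cKO-labelled cells and 3.87 times in wild-type-labelled cells, both from deposited TPM. S100a11 (Entrez 20195, chromosome 3, 93520496 to 93526288), a partner of annexin A1, had 623 reads against 448. Its ratio of 1.39 (1.22 to 1.57) was close to that of Anxa2.

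S100a6 (Entrez 20200, chromosome 3, 90612894 to 90614414) encodes calcyclin, which has been described in astrocytes and in neural stem cells of the mouse hippocampus. It was the 1 gene of the set that was lower past 1.5-fold, with 25 reads, or 1.32 CPM, in cKO-labelled cells and 186 reads, or 9.87 CPM, in wild-type-labelled cells. This was 7.47-fold lower in cKO-labelled cells (4.90 to 11.8). With 5 CPM added in place of 1 the log2 difference of -2.23 shrank to -1.23, as S100a6 was under 10 CPM in both libraries. Per transcript length it stood at 5.21 TPM (rank 9742) in cKO-labelled cells and 39.5 TPM (rank 4007) in wild-type-labelled cells. The gene of its binding partner, Cacybp, was 1.62-fold higher (1.55 to 1.69), at 267 CPM against 165 CPM.

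The S100 genes outside the set went with S100a6 and not with S100a10 and S100a11. All 6 kept were lower in cKO-labelled cells by 1.5-fold or more, with a median difference of -1.09, where 10.2% of all kept genes were lower. S100a3, at 0.42 CPM against 2.02 CPM, was kept through the wild-type library only, so its direction was set by the filter. With 5 CPM added, 4 of these 6 were lower past 1.5-fold, beside 5.34% of all kept genes. With a filter of 10 CPM 4 were kept, all 4 of them lower past 1.5-fold, beside 6.85% of all genes kept at that filter. S100a16 had 1377 reads against 3713 and was 2.71-fold lower (2.54 to 2.88). S100a1, a calcium sensor known from heart muscle and also present in brain, was 2.19-fold lower (1.92 to 2.49) and S100a13, which helps to export growth factors, 2.11-fold (1.80 to 2.48). S100b, the S100 gene used as an astrocyte marker, had 40 reads against 216 (5.42-fold lower, 3.85 to 7.80). S100a4, known from motile fibroblasts and tumour cells, had 43 reads against 106 (2.47-fold, 1.72 to 3.61), and S100a3 had 8 against 38 (4.77-fold, 2.19 to 11.8).

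These differences cancelled in the family total. The 11 S100 genes listed summed to 426 CPM in cKO-labelled cells and 424 CPM in wild-type-labelled cells, a ratio of 1.01 (0.974 to 1.04). S100a10 and S100a11 made up 317 CPM of that sum in cKO-labelled cells and 132 CPM in wild-type-labelled cells, while the other 9 genes made up 109 CPM and 292 CPM. Per transcript length, which weighs short transcripts more, the family total was 1914 TPM in cKO-labelled cells and 1538 TPM in wild-type-labelled cells.

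**Figure D2:**
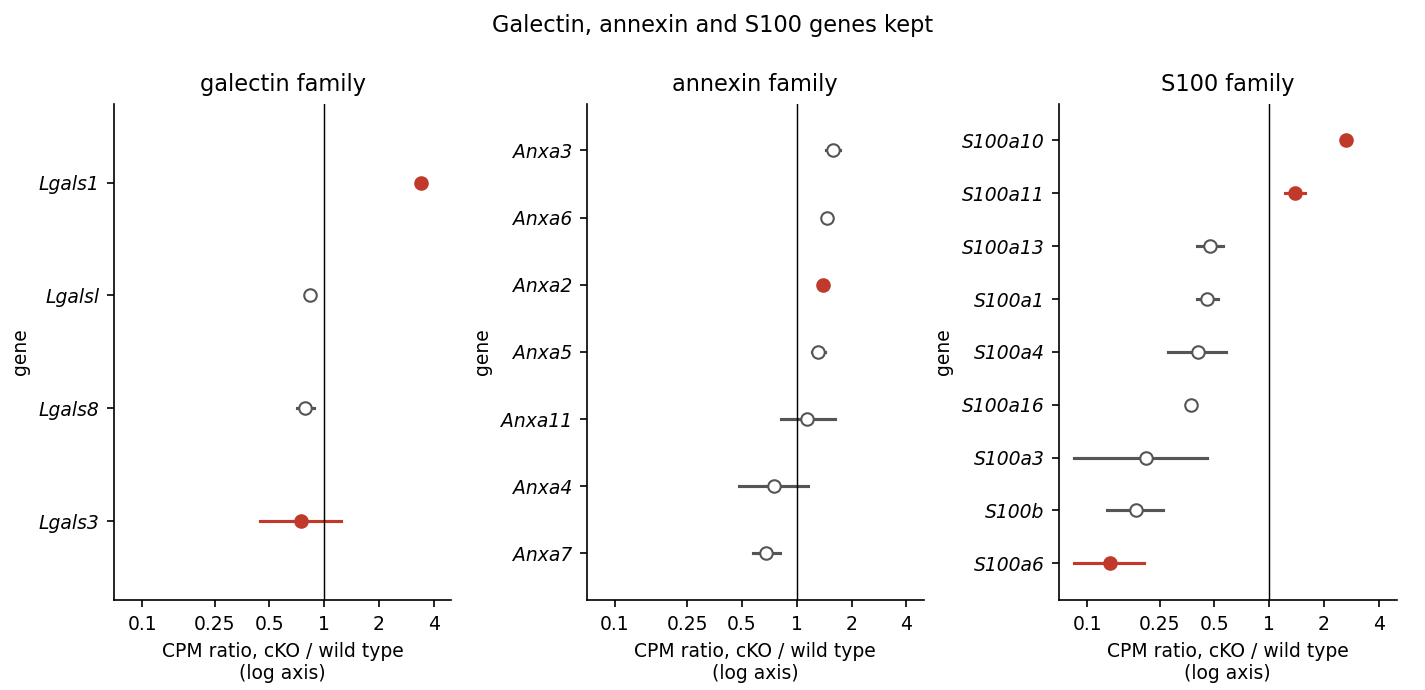
CPM ratio of cKO over wild type on a log axis for each kept galectin, annexin and S100 gene, with exact 95% counting intervals (lines; hidden where shorter than the point). Filled red points are genes of the set and open points are other family members. In the S100 panel S100a10 (2.63) and S100a11 (1.39) lie right of 1, and the other 7 genes lie left of it, down to S100a6 (0.134).

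Astrocyte markers moved in the same direction as the lower S100 genes. All 10 of the list used, S100b among them, were lower in cKO-labelled cells by 1.5-fold or more, beside 10.2% of all kept genes. Their summed level was 2736 CPM against 5449 CPM. Gfap, the astrocyte intermediate filament gene, had 1519 reads against 7765. Of 11 kept oligodendrocyte lineage markers 8 (72.7%) were lower by that much and 0 higher, beside 10.2% and 4.22% of all kept genes. Mag (1 read against 225) and Enpp6 (2 against 364), both among the lower, reached 1 CPM in wild-type-labelled cells only. Their direction was set by the filter. The list summed to 2428 CPM against 3623 CPM. The part of these cells in the levels of S100a6 and its relatives was not tested.

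Position on chromosome 3 separated the same S100 genes. The 6 kept genes from S100a1 to S100a6, all lower in cKO-labelled cells, have their starts within 102 kb of the S100a6 start, in a cluster of 8 listed S100 genes that spans 147 kb. S100a14 and S100a7a, the other genes of that cluster in the table, had 1 read each in cKO-labelled cells and 11 and 3 reads in wild-type-labelled cells, below 1 CPM. S100a11 and S100a10, both with ratios above 1 but only S100a10 past 1.5-fold, start 2.91 Mb and 2.94 Mb away. S100b lies on chromosome 10, so its lower level shares no position with the cluster.

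**Figure D3:**
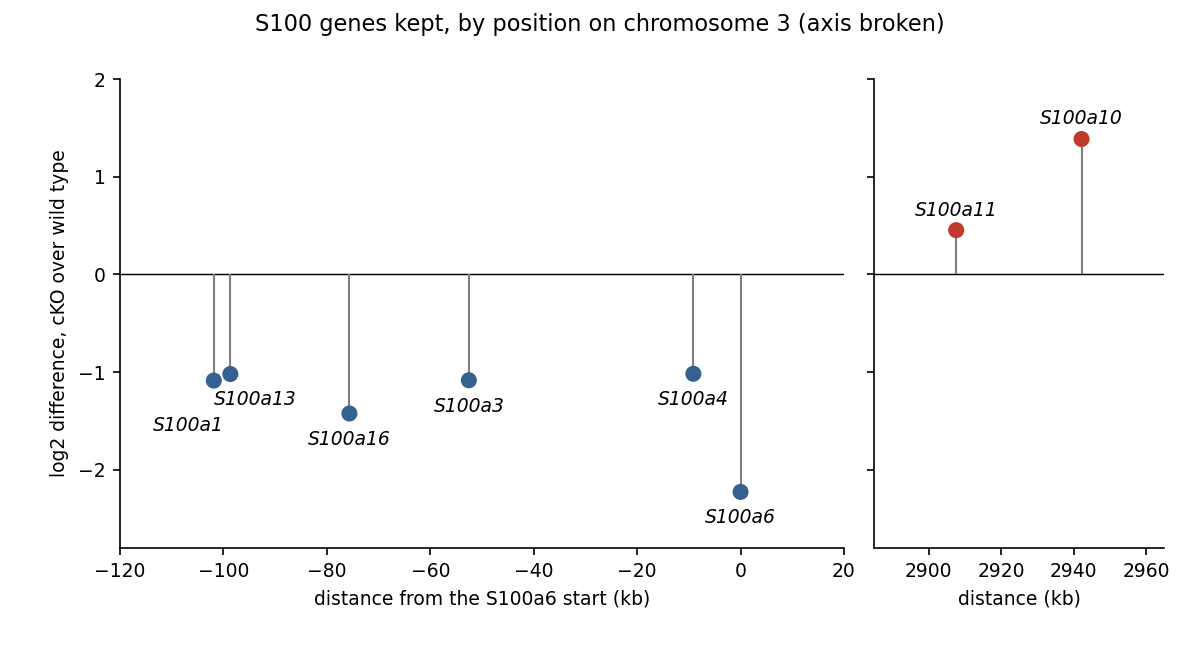
Log2 difference, cKO over wild type, of the 8 kept S100 genes of chromosome 3 against the distance of each start from that of S100a6, in kb, with the axis broken. The 6 genes of the left stretch lie between -1.02 and -2.23, and S100a11 and S100a10 on the right lie at 0.45 and 1.39.

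The promoter windows of S100a6 and S100a11 are set side by side as those of 2 genes of the same family. S100a6 was lower past 1.5-fold, and S100a11 had a ratio above 1 but within 1.5-fold. Capitals mark the motif letters found. S100a6 (chr3:90612644-90612943, plus strand) holds GAANNTTC once, 18 bases before its start, and no TGANTCA. S100a11 (chr3:93520246-93520545, plus strand) holds TGANTCA at 136 and 38 bases before its start and no GAANNTTC.
S100a6: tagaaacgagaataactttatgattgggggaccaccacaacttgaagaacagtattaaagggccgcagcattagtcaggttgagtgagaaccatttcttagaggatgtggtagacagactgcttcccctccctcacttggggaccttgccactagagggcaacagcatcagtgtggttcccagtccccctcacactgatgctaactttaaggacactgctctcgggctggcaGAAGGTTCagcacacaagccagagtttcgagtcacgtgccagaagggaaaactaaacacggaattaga
S100a11: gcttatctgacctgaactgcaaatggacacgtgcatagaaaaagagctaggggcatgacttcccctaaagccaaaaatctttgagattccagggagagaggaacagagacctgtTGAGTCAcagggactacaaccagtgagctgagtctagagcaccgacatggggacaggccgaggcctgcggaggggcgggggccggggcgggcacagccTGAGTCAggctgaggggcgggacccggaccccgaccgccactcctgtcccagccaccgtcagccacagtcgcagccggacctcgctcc

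Such matches are common and are given as letters only. RefSeq windows were at hand for 8 of the 10 genes, 9 windows in all since Spp1 has 2 starts, and Lgals1 and S100a10 had none. TGANTCA occurred in 2 of the 9 windows (Anxa2 and S100a11, both genes within 1.5-fold) and in 7.81% of 32851 windows genome-wide. GGAATG occurred in 1 (Anxa1) and 14.7%, and GAANNTTC in 1 (S100a6) and 7.86%. The windows of Tm4sf1, Cd44 and Spp1, genes higher past 1.5-fold, held none of these letters. No match overlapped another in these windows.

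Tm4sf1 (Entrez 17112, chromosome 3, 57285611 to 57387736) encodes a membrane-spanning protein known from endothelial and carcinoma cells, where it sits in filopodia. It had the highest ratio of the 10 genes, with 549 reads, or 29.0 CPM, in cKO-labelled cells and 84 reads, or 4.46 CPM, in wild-type-labelled cells. The ratio was 6.51 (5.17 to 8.29), and its rank by TPM was 3746 in cKO-labelled cells and 9625 in wild-type-labelled cells. No other gene of its family, such as Tm4sf4 or Tm4sf5, was listed. Endothelial markers were scarce: of 8, 2 were kept, Kdr at 64 reads against 38 (ratio 1.68, 1.11 to 2.58) and Flt1 at 83 against 132 (1.60-fold lower, 1.20 to 2.13), both within 1.5-fold once 1 CPM is added. All listed markers summed to 8.46 CPM against 9.55 CPM, with Cdh5 and Cldn5 not listed. The window of Tm4sf1 (chr3:57301939-57302238, minus strand) is shown as that of the gene with the highest ratio, and held none of the 3 motifs. The span given for the gene reaches further upstream, to 57387736, and no window at that end was searched.
Tm4sf1: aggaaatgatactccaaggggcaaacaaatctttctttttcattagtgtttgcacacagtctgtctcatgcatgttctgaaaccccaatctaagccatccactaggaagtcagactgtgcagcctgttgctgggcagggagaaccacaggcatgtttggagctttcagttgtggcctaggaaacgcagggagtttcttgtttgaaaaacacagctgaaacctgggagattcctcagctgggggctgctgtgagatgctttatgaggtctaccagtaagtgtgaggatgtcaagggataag

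Cd44 (Entrez 12505, chromosome 2, 102811141 to 102901669) encodes the hyaluronan receptor, also a receptor of osteopontin. It had 6869 reads, or 363 CPM, in cKO-labelled cells and 4247 reads, or 225 CPM, in wild-type-labelled cells. The ratio of 1.61 (1.55 to 1.67) was modest but well above counting error. Cd44 is spliced into many variant forms, and the values here are of the whole gene.

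Genes that make, break or bind hyaluronan, with the ezrin, radixin and moesin genes that tie CD44 to actin, went both ways. Past 1.5-fold, 3 of the 11 kept (27.3%) were higher in cKO-labelled cells and 3 (27.3%) lower, with a median difference of 0.10. Over all kept genes 4.22% were higher and 10.2% lower. The list was chosen with earlier results of these data known, so its shares are a description. Cemip, which takes part in hyaluronan breakdown, had 682 reads against 174 (ratio 3.90, 3.30 to 4.64), and Has2, a hyaluronan synthase gene, had 173 against 417 (2.42-fold lower, 2.02 to 2.91). The linkers split, as moesin (Msn) was 1.74-fold higher (1.70 to 1.79) at 830 CPM against 477 CPM and ezrin (Ezr) 1.59-fold lower (1.45 to 1.75). Hmmr, a hyaluronan-binding protein of the mitotic spindle, was 1.79-fold higher (1.63 to 1.96) and the hyaluronidase gene Hyal1 1.86-fold lower (1.53 to 2.26).

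Spp1 (Entrez 20750, chromosome 5, 104435111 to 104441053) encodes osteopontin, a secreted phosphoprotein that binds integrins and CD44. It had 883 reads, or 46.7 CPM, in cKO-labelled cells and 294 reads, or 15.6 CPM, in wild-type-labelled cells, a ratio of 2.99 (2.62 to 3.43). Microglia and macrophages are well-known sources of Spp1, Lgals3 and Cd44, so their markers were read beside them. Of 15 such markers 6 were listed, and Cx3cr1, Csf1r, Itgam, P2ry12 and Tmem119 had 5 reads or fewer in each library. Cd68, a lysosomal gene not confined to these cells, had 91 reads against 56.

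Of 8 kept integrin genes whose products can bind osteopontin, 2 (25%) were higher in cKO-labelled cells past 1.5-fold and 2 (25%) lower (median 0.23). Over all kept genes the shares were 4.22% and 10.2%. Itga4 had 497 reads against 128 (ratio 3.87, 3.18 to 4.73) and Itga5, the fibronectin receptor chain, 2174 against 1144 (1.89, 1.76 to 2.04). Itgb5 was 2.09-fold lower (1.91 to 2.29), and Itgb3, with 7 reads against 22, is the other lower gene. Itgb3 reached 1 CPM in wild-type-labelled cells only, so its direction was set by the filter. Within 1.5-fold lay Itgb1, at 931 CPM against 708 CPM (ratio 1.31, 1.29 to 1.34). So did Itgav, at 220 CPM against 271 CPM (0.812, 0.779 to 0.846). With a filter of 10 CPM 5 integrin genes were kept, with 2 higher and 1 lower past 1.5-fold. Of all genes kept at that filter 3.68% were higher and 6.85% lower. The genes of receptor and ligand therefore did not differ as 1 block.

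**Figure D4:**
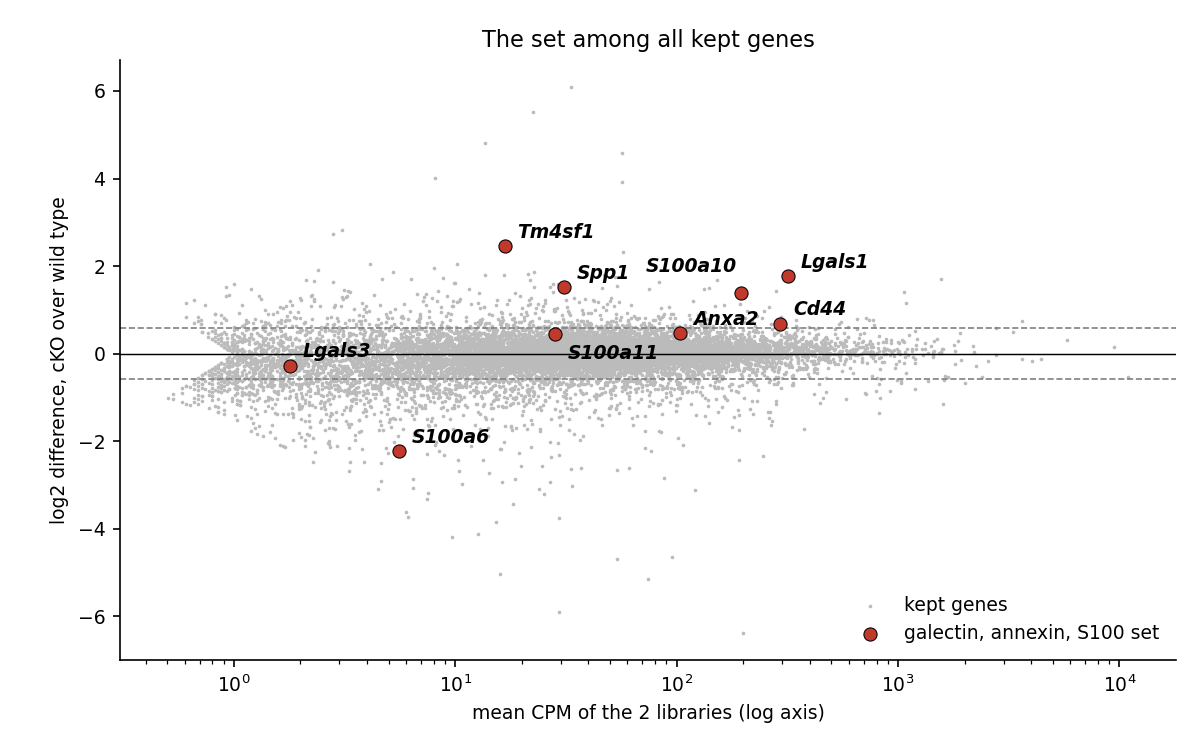
Log2 difference, cKO over wild type, against the mean CPM of the 2 libraries (log axis) for all 12618 kept genes (grey) and the 9 kept genes of the set (red). Dashed lines mark 1.5-fold; 5 red points lie above the upper line, S100a6 lies below the lower line at -2.23, and Lgals3, S100a11 and Anxa2 lie between them.

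Among partners of the annexins and S100 proteins, 3 of 9 kept genes (33.3%) were higher in cKO-labelled cells past 1.5-fold and 0 lower (median 0.18). Over all kept genes the shares were 4.22% and 10.2%. Plaur, the receptor of urokinase, had 197 reads against 81 (ratio 2.42, 1.86 to 3.18), while the urokinase gene Plau had 127 against 135. Plat, the activator that binds the annexin A2 complex, was at 433 CPM against 303 CPM, a log2 difference of 0.51 and so under 1.5-fold. Plasminogen (Plg) and the formyl peptide receptor genes Fpr1 and Fpr2 were not listed.

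Other genes often counted as mesenchymal went both ways. Past 1.5-fold, 11 of the 43 kept (25.6%) were higher in cKO-labelled cells and 6 (13.95%) lower, beside 4.22% and 10.2% of all kept genes, so the lower share was near that of all genes. The median was 0.04, beside -0.02 for all kept genes. Tnc, a matrix glycoprotein gene of stem cell niches, had 2402 CPM against 731 CPM (ratio 3.29, 3.23 to 3.35). Ccn2, Thbs1 and Tgfbi, matrix-associated genes, were 10.3-fold (5.01 to 24.7), 3.83-fold (2.47 to 6.15) and 4.30-fold (2.47 to 7.93) higher, all under 6 CPM in both. Ccn2 and Tgfbi reached 1 CPM in cKO-labelled cells only, so their direction was set by the filter. Fibronectin (Fn1) was 4.15-fold lower (3.63 to 4.76), Tagln, an actin-binding gene of smooth muscle, 1.92-fold (1.37 to 2.71), the metallothionein gene Mt2 1.84-fold (1.73 to 1.95) and the peroxiredoxin gene Prdx6 1.73-fold (1.67 to 1.80).

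Markers of fibroblasts and pericytes, the cells a mesenchymal label would point to, were near 0, lower past 1.5-fold or within it. Collagen genes Col1a1, Col1a2 and Col3a1 had at most 17 reads in either library, Lum had 1 read against 0 and Dcn was not listed. Of the 4 kept markers 1 had a ratio above 1. This was Acta2, at 121 reads against 77 (1.57, 1.17 to 2.11), within 1.5-fold once 1 CPM is added. The list of 11 summed to 31.8 CPM against 167 CPM, most of it from Pdgfra (396 reads against 2926), which oligodendrocyte precursors share. The term mesenchymal is thus kept here only as the name of the set, since S100a6 was lower and Lgals3 and Anxa1 were barely detected.

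Of 22 kept transcription factor genes linked to such programmes, 6 (27.3%) were higher in cKO-labelled cells past 1.5-fold and 2 (9.09%) lower (median 0.19), beside 4.22% and 10.2% of all kept genes. Runx1 had 166 reads against 32 (ratio 5.17, 3.52 to 7.80). Prrx1, a homeobox gene of mesenchyme, was 2.37-fold higher (2.13 to 2.65), the AP-1 gene Fosl1 2.35-fold (1.91 to 2.90) and Cebpd 1.55-fold (1.41 to 1.71). Bhlhe40 was 1.84-fold lower (1.75 to 1.93) and Cebpb 1.56-fold (1.28 to 1.90). Snai1 and Twist1 had at most 4 reads in either library, and Snai2 and Twist2 were not listed.

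**Figure D5:**
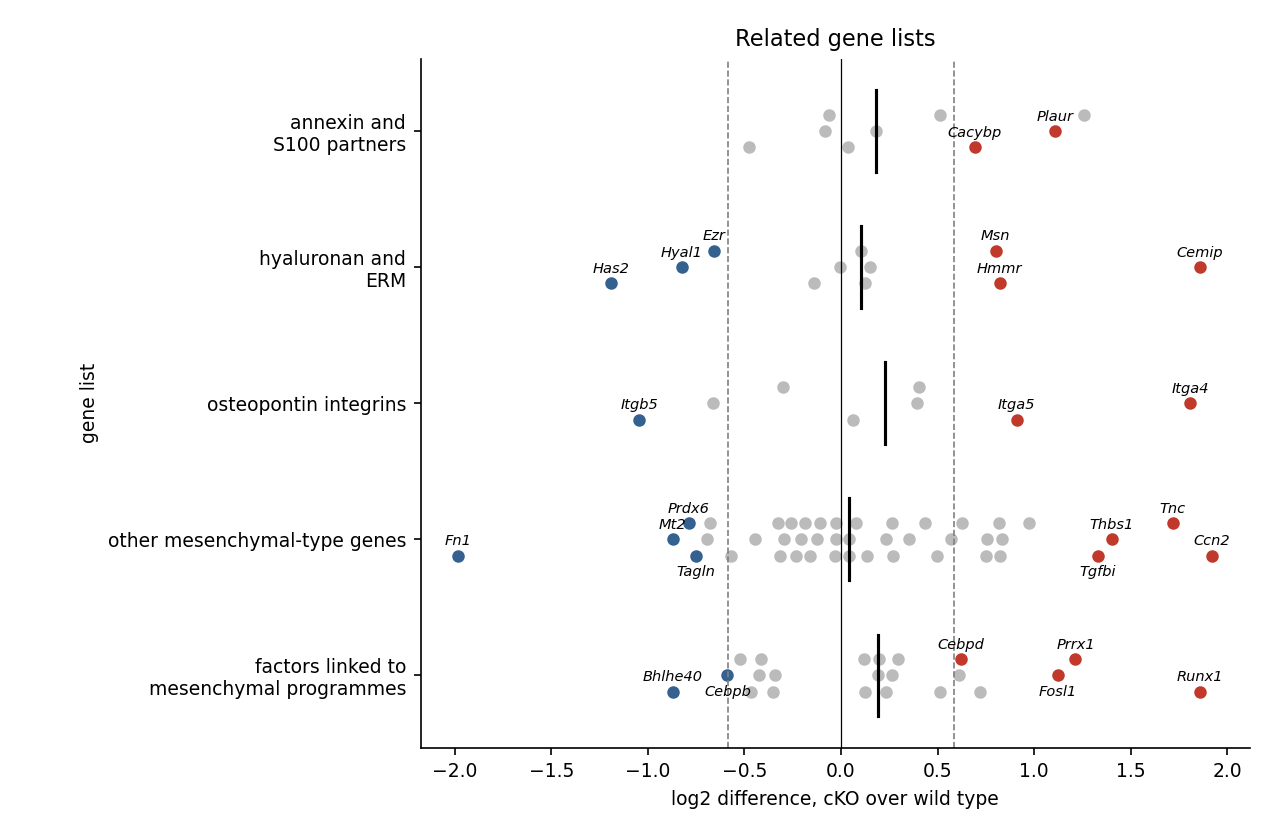
Log2 difference, cKO over wild type, of the kept genes in 5 related lists, without the genes of the set. Each point is a gene, black bars are list medians, dashed lines mark 1.5-fold and coloured points are the genes named by rule (red higher, blue lower). Every list has its median between 0 and 0.25, and genes lie beyond both dashed lines in each list except that of annexin and S100 partners.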

How the data were processed

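Total RNA of 2 libraries of mouse neural stem cells was sequenced, and groups came from the genotype labels. Per the submitters' processing notes, reads were handled on GRCm38.p6. Nothing on the aligner, counter or strand setting is given in the sources used here. FPKM, TPM, an estimated count of reads per gene and a normalized signal were deposited by the authors; per the file headers these are the names of the columns, and how each was computed is not stated. All 10 genes had whole estimated counts, as deposited. In the deposited table the normalized signal equalled the count rounded up times 1 constant per library, 1.00261 (cKO) and 0.997397 (wild type).

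Estimated counts were rounded and scaled to column totals (CPM). Genes with at least 1 CPM in a library were kept, and differences are log2 ratios after adding 1 CPM. A gene kept through 1 library alone is higher there by the filter itself. Ratios in the text are without the added value and carry exact conditional binomial (Clopper-Pearson) 95% intervals (scipy 1.17.1). The labels mention no molecular identifiers, so the intervals cover counting error at most. With 1 library per group no test was made. Alternatives used other scalings, including TMM factors from edgeR 4.0.16, other added values and filters, deposited TPM and FPKM, and removal of a GC trend. The scripts were tested on simulated data.

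The members and gene lists were chosen with earlier results of these data known, so the shares of each list are a description. Named were the 10 genes, Hikeshi, all kept family members, and per list up to 4 genes per direction at least 1.5-fold apart with at least 50 reads in 1 library; others were chosen after their values were seen. One list gene that the counts include is not reported here. Coordinates and promoter windows are from RefSeq (GRCm38.p6). In GENCODE M21 an antisense gene shares exon bases with Anxa2, an unnamed model with Spp1, and a read-through model with S100a3 and S100a4; in RefSeq the ends of S100a1 and S100a13 overlap by 98 bases on opposite strands. Without a known strand setting such reads may not be separable.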

Additional observations from a re-analysis of the deposited data

How the results depend on the processing

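The 5 genes at least 1.5-fold higher were 5 under each of the 10 alternatives, and no difference of a called gene changed sign. Scaling by the authors' constants, TMM or upper quartile moved the median of all kept genes to between -0.01 and 0.01 at most. With a filter of 10 CPM, which drops S100a6 and Lgals3, the median of the set was 1.39 in place of 0.69. With 5 CPM added, 5 in place of 8 transcription factor genes were at least 1.5-fold apart, and over all kept genes 304 in place of 532 were higher and 674 in place of 1290 lower; at the 10 CPM filter 682 were lower. With the GC trend removed, 2 annexins outside the set in place of 1 were at least 1.5-fold apart; the cause was not tested. The log2 difference of S100a6 ranged from -2.70 to -1.23 over its 9 alternatives, that of Tm4sf1 from 1.85 to 2.64 and that of Cd44 from 0.64 to 0.71. No paired analysis was possible because each group has 1 library. Depth limits Anxa1 and Lgals3, for which a difference was not detectable.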

Other observations

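Genes next to the S100 cluster of chromosome 3 were read after the S100 values had been seen. Within 250 kb of the cluster's ends 9 genes outside the family were kept, of which 1 was higher and 1 lower in cKO-labelled cells past 1.5-fold, with a median log2 difference of -0.03. Among all kept genes 4.22% were higher and 10.2% lower by as much. Npr1, a natriuretic peptide receptor gene, had 255 reads against 109, and Snapin, a gene of vesicle transport, had 860 against 1334. Ilf2 and Chtop, abundant genes of RNA handling, had log2 differences of 0.10 and -0.33. Between the cluster and S100a11 the only other gene kept was Lor, an epidermal gene, with 35 reads against 37. No gene outside the family was kept within 250 kb of S100a11 and S100a10.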
